A study of Mus musculus with 2 samples.

Results

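The chemokine and sphingosine homing receptors are 10 genes for surface receptors that guide blood cells out of, back to and within the bone marrow: Cxcr4, Ccr1, Ccr2, Ccr7, Cxcr2, Cxcr3, Cx3cr1, S1pr1, S1pr4 and Gpr183. They were chosen by name, and their members were all 16 probe sets whose only gene in the platform's annotation was a listed receptor. These 10 genes stand among 18193 genes that the annotation gave. They were compared between haematopoietic stem cells, labelled HSC, of Wip1 knockout mice and of wild type mice, each 3 months old, on 1 Affymetrix array per genotype. Wip1 is the phosphatase encoded by Ppm1d, and the labels do not say how its gene was disrupted, or give the strain, the gates of the sort or the number of mice per array.

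All 10 receptors belong to the class of receptors that cross the membrane repeatedly and signal through G proteins, mostly of the Gi type. Chemokine receptors read small secreted proteins, S1pr1 and S1pr4 read the blood lipid sphingosine-1-phosphate, and Gpr183 reads hydroxylated cholesterol derivatives. In marrow, Cxcr4 on stem cells is known to bind Cxcl12 of the niche and to hold the cells there, whereas sphingosine-1-phosphate, which is richer in blood, draws cells out. The other receptors are best known on more mature cells, such as monocytes, neutrophils and lymphocytes.

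Since each genotype had a single array, no test was possible and no p-value is given. Intensity is the brightness of a probe set, and the floor was each array's median, 25.9 on the knockout array and 25.2 on the wild-type array. A gene above the floor on either array counts as detected here, which is no proof of expression. Differences are given on the log2 scale as knockout minus wild type, after centring that moved each by 0.01. A difference against a value under the floor is given as at least its size, which holds only for this scaling and floor. Other settings can give less, as for Gpr183, at 0.28 here and at 0.19 with the floor added to every value. The SD of the difference of a single probe set around its gene was 0.22, from the 5084 genes that had 2 or more detected probe sets. That SD holds no variation between animals or arrays.

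No homing receptor differed by as much as 1.5-fold between the arrays. Of the 10 receptors 8 were detected, of which 5 were lower and 3 higher in the knockout, with differences from -0.45 to 0.28. Ccr2, a receptor of monocytes and of some progenitors, had the largest difference and was lower in each of its 4 probe sets. Cxcr4 and S1pr1, the receptors of marrow retention and exit, were both slightly lower in the knockout, while S1pr4, Gpr183 and Cx3cr1 were slightly higher. The differences of Cxcr4 and S1pr4 are within the SD of a single probe set. Ccr7 and Cxcr2, which mark lymphocytes on their way to lymph nodes and neutrophils, were not detected on either array.

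The detected receptors had a median of -0.14, against 0.0002 over all 11440 detected genes. Among all detected genes 2.30% were higher by 1.5-fold or more, 1.55% were lower by 1.5-fold or more and 0.664% reached 2-fold in either direction, so counts of 0 among 8 receptors are near the background. A share of 50.0% of all detected genes was lower in the knockout, against 5 of 8 receptors. The median size of a difference, sign aside, was 0.23 for the receptors and 0.15 for all detected genes.

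**Figure D1:**
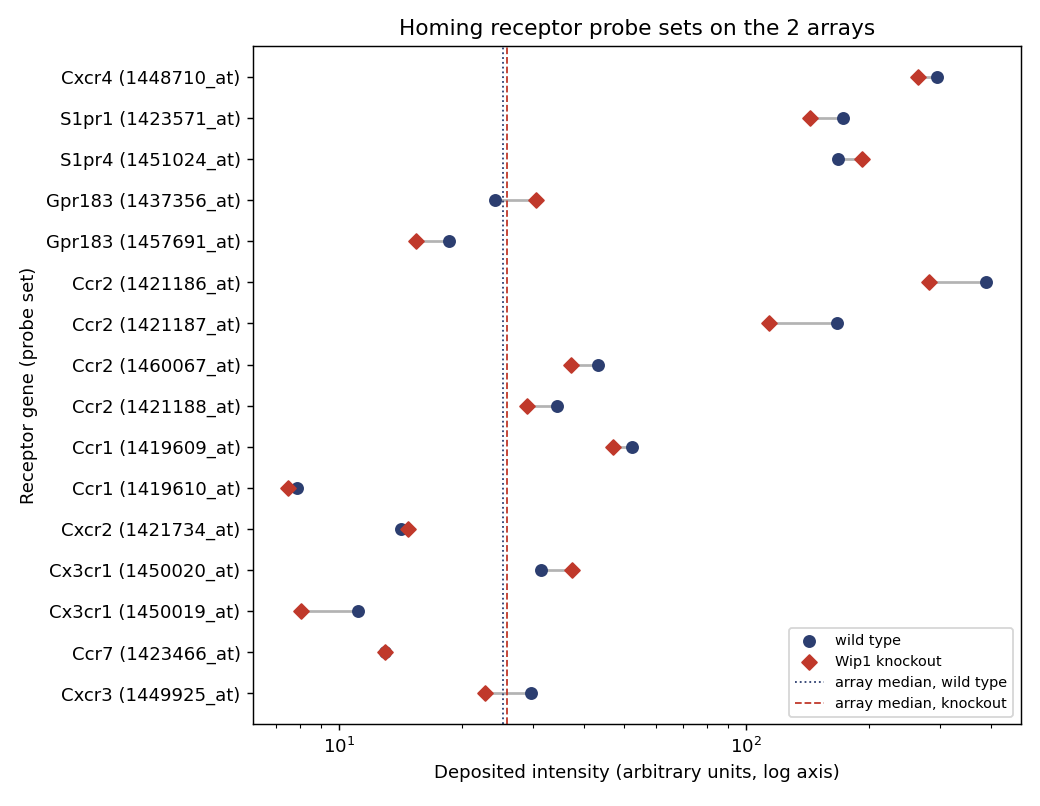
Deposited intensity on a log axis for the 16 probe sets of the 10 receptors, with circles for the wild-type array, diamonds for the Wip1 knockout array and vertical lines at each array's median. Of the 16 probe sets, 9 lie above the median on both arrays and 5 lie under it on both, and all 4 Ccr2 probe sets have the knockout to the left of the wild type.

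The targeted gene and the cell markers were checked first. Ppm1d had intensities of 160 against 167 and of 59.0 against 55.6 in knockout and wild type, and whether its 2 probe sets lie in the disrupted part is not given, so they check nothing about the labels. Stem cell markers were detected in 10 of 10 measured genes, 5 higher and 5 lower in the knockout, with a median of -0.03. Their summed intensity was 6161 in the knockout and 5387 in the wild type, most of which difference was Hlf, at 1270 and 788. Among them Hlf, a transcription factor of stem cells, differed by 0.70, and Slamf1, which encodes a stem cell surface protein, by -0.66. The arrays also differed in sex-linked transcripts: the brightest probe set of Xist read 3778 in the knockout and 6227 in the wild type, and that of the Y-linked Eif2s3y 149 and 31.8. Of the receptors only Cxcr3 lies on the X chromosome.

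The windows upstream of the receptor genes were read from a table of RefSeq sequences on GRCm38.p6, in which 8 of the 10 receptors were matched. S1pr1 and Ccr7 were not matched. Each sequence below is the 250 bases before the annotated start, 5′ to 3′ on the gene's strand, with motif matches in capitals. The 3 shown are Cxcr4, the retention receptor, which read lower, and S1pr4 and Gpr183, which read higher. The differences of Cxcr4 and S1pr4 are within the SD of a single probe set, and Gpr183 is near the floor. These windows therefore give no comparison by sign. For Ccr2 another annotated transcript begins further upstream, and its window is not shown.
Cxcr4, chr1:128592300-128592549, minus strand: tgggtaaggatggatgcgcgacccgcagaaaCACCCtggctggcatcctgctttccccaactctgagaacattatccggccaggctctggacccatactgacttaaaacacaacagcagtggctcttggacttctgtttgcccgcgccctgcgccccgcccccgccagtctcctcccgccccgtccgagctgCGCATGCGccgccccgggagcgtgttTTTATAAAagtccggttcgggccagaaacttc
S1pr4, chr10:81500138-81500387, minus strand: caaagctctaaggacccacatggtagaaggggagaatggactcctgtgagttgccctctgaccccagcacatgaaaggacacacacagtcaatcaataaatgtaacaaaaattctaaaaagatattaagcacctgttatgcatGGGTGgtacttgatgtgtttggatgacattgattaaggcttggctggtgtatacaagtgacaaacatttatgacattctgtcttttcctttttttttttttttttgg
Gpr183, chr14:121965194-121965443, minus strand: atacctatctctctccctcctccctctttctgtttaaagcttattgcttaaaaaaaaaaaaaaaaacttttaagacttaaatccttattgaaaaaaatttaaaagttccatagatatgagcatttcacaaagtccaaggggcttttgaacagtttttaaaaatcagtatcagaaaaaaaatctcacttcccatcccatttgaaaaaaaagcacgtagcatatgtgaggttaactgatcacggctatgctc

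Motifs were searched on both strands, and a match describes letters, not a site in use. The Cxcr4 window held 19 CpG, with 61.2% of its bases G or C. It held TATAAA, the TATA box, at position -30, counted back from the annotated start, with an overlapping match on the other strand that begins at -32. A share of 12.4% of all 32851 windows held TATAAA, and Cxcr4 was the only 1 of the 8 receptor windows with it. The letters CGCATGC, from the middle of the palindrome that NRF-1 binds, were found in the Cxcr4 window at -58 and, overlapping on the other strand, at -57, and in 3.02% of all windows. No other receptor window held them. CACCC, the core of Kruppel-like factor sites, was in 4 of the 8, including Cxcr4 at -219 and, on the other strand, S1pr4 at -107, and in 52.0% of all windows.

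The S1pr4 window held 0 CpG, with 38.8% G or C, and the Gpr183 window 2 CpG, with 32.0% G or C, whereas the median over all windows was 6 CpG and 52.4%. AGGAAG, the core of PU.1 sites, matched 2 receptor windows, those of Cxcr2 and Cxcr3, and 29.5% of all. GATAAG, a site for GATA factors, matched 0 of the 8 and 6.55% of all. The Gpr183 window held none of the 5 motifs. Whether the matches relate to the array values was not tested.

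Among the receptors of retention and egress, 2 were lower and 2 higher. Cxcr4 had an intensity of 264 in the knockout and 295 in the wild type by its only probe set. The knockout was lower, by 1.11-fold, with a log2 difference of -0.15, which is within the SD of a single probe set. Of the 500 detected probe sets nearest in brightness, 53.6% differed by at least as much in either direction, so the difference was an ordinary one for this pair of arrays. S1pr1, the receptor that takes cells into blood and lymph, read 144 in the knockout and 173 in the wild type. It was 1.19-fold lower in the knockout (-0.25), a little past the SD of a single probe set, and 31.8% of the probe sets nearest in brightness differed by at least as much.

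Both other receptors of this class were higher in the knockout. S1pr4, a sphingosine-1-phosphate receptor found mainly on blood cells, read 193 in the knockout and 168 in the wild type. It was 1.16-fold higher (0.21), which is within the SD of a single probe set. The sign was opposite to that of S1pr1, and 35.8% of its neighbours in brightness differed by at least as much. Gpr183, which positions B cells and dendritic cells along oxysterol gradients, read 30.4 in the knockout and 24.1 in the wild type in its brighter probe set. The wild-type value was under the floor, so the knockout was higher by at least 0.28, or by 0.35 without the floor. Its other probe set, at 15.4 and 18.6, was under the floor on both arrays, and no difference is read from it.

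**Figure D2:**
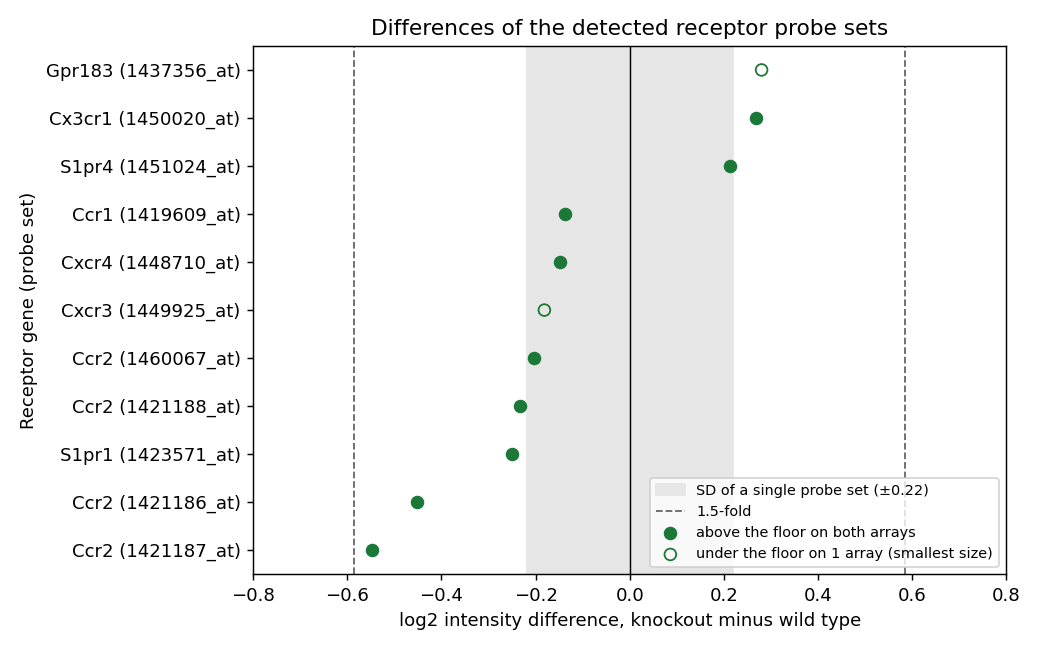
log2 intensity difference, knockout minus wild type, for the 11 detected receptor probe sets, with the SD of a single probe set (0.22) shaded and 1.5-fold as dashed lines; open circles mark probe sets under the floor on 1 array. The 2 brighter Ccr2 probe sets, at -0.45 and -0.55, lie farthest from 0, and none of the 11 reaches 1.5-fold.

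Among the receptors of inflammatory and myeloid cells, Ccr2 had the clearest pattern because it was measured by 4 probe sets. Ccr2 binds Ccl2 and Ccl7 and is known to bring monocytes, and progenitors that carry it, from marrow to sites of inflammation. Its brightest probe set read 281 in the knockout and 388 in the wild type. The second read 114 and 168, the third 37.2 and 43.2, and the fourth 28.9 and 34.2. The knockout was lower in every probe set, with log2 differences of -0.45, -0.55, -0.20 and -0.23. Their mean was -0.36 ± 0.17 (SD over 4 probe sets, which are not replicates and share 1 RNA sample per genotype).

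The brightest Ccr2 probe set was 1.37-fold and the second 1.46-fold lower in the knockout. Of the 500 probe sets nearest in brightness, 7.20% and 7.80% differed by at least as much, whereas for the 2 dimmer ones it was 45.8% and 38.2%. Over all detected genes, 3.33% were as low as Ccr2 or lower. Of 833 genes that had 4 or more detected probe sets, 15.6% had all of them lower in the knockout, and 16 genes, Ccr2 included, did so with a mean as low as that of Ccr2 or lower. These counts over probe sets were chosen after the values were seen. In such bulk samples fewer cells that carry a receptor and less of its RNA per cell cannot be told apart.

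Markers of monocytes and macrophages, the mature cells best known for Ccr2, were detected in 8 of 9 measured genes, 6 higher and 2 lower in the knockout, with a median of 0.19 and Adgre1 under the floor on both arrays. Their summed intensity was 2228 in the knockout and 1711 in the wild type, most of which difference was Csf1r, the receptor of macrophage colony-stimulating factor, at 770 and 294 (1.40). The complement gene C1qc differed by at least 0.85. Markers of neutrophils, detected in 10 of 11 genes with Mmp8 under the floor, were higher in 2 and lower in 8, with a median of -0.17. They summed to 13772 and 16227, mostly through the peroxidase gene Mpo (-0.57), and Ms4a3 differed by -0.72. Markers of dendritic cells, detected in 5 of 7 genes with Xcr1 and Siglech under the floor, were higher in 3 and lower in 2, with a median of 0.15. They summed to 3121 and 1759, and Flt3 (1.26) and Irf8 (0.77) made up more than that difference. Flt3, which read 2112 in the knockout and 892 in the wild type, is also counted among the early lymphoid markers below. The part of these cells in the Ccr2 difference was not tested.

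The other receptors of this class were dim. Ccr1, a receptor for Ccl3 and Ccl5 on myeloid cells, read 47.1 in the knockout and 52.3 in the wild type, a difference of -0.14 that is within the SD of a single probe set. Its other probe set, at 7.49 and 7.88, was under the floor on both arrays. Cx3cr1, the receptor for fractalkine on patrolling monocytes and macrophages, read 37.3 in the knockout and 31.2 in the wild type, 1.20-fold higher (0.27). Its second probe set, at 8.07 and 11.1, was under the floor on both arrays, so the sign of Cx3cr1 rests on 1 probe set near the floor. Cxcr2, which releases neutrophils from marrow in answer to Cxcl1 and Cxcl2, read 14.8 and 14.2, both under the floor.

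The receptors of lymphocytes were at or under the floor. Cxcr3, which draws activated T cells to Cxcl9, Cxcl10 and Cxcl11, read 22.8 in the knockout, under the floor, and 29.6 in the wild type. It was lower in the knockout by at least 0.18 on the log2 scale, or by 0.36 without the floor. The smaller of these is within the SD of a single probe set. Ccr7, which takes T cells and dendritic cells to lymph nodes in answer to Ccl19 and Ccl21, held exactly the same intensity on both arrays, 13.0, and no difference can be read from it.

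Markers of T and natural killer cells were likewise sparse, detected in 4 of 9 genes. Cd3d, Cd3g, Cd5, Ncr1 and Gzma were under the floor on both arrays. The 4 detected genes, 1 higher and 3 lower, summed to 767 in the knockout and 944 in the wild type. Most of that difference was Nkg7, at 668 and 835 (-0.31), and Cd3e was at -0.21. Markers of mature B cells were detected in 5 of 7 genes, with Fcer2a and Cr2 under the floor, and summed to 307 and 278. Of the 5, 3 were higher and 2 lower, with a median of 0.01. The gene at that median held the same intensity on both arrays and counts as higher only through the centring. Cd79a and Cd79b were at 0.27 each. Early lymphoid markers were much brighter in the knockout, with a sum of 9874 against 4400, 8 of 9 genes detected, each of them higher, and Rag2 under the floor. Most of that difference was Dntt, at 5492 and 2228 (1.31) in an _x_at probe set, a class that can match related sequences. Its other probe sets differed by 1.67 and 1.40, and Il7r was at 1.33. The part of these cells in the values of the lymphoid receptors was not tested.

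**Figure D3:**
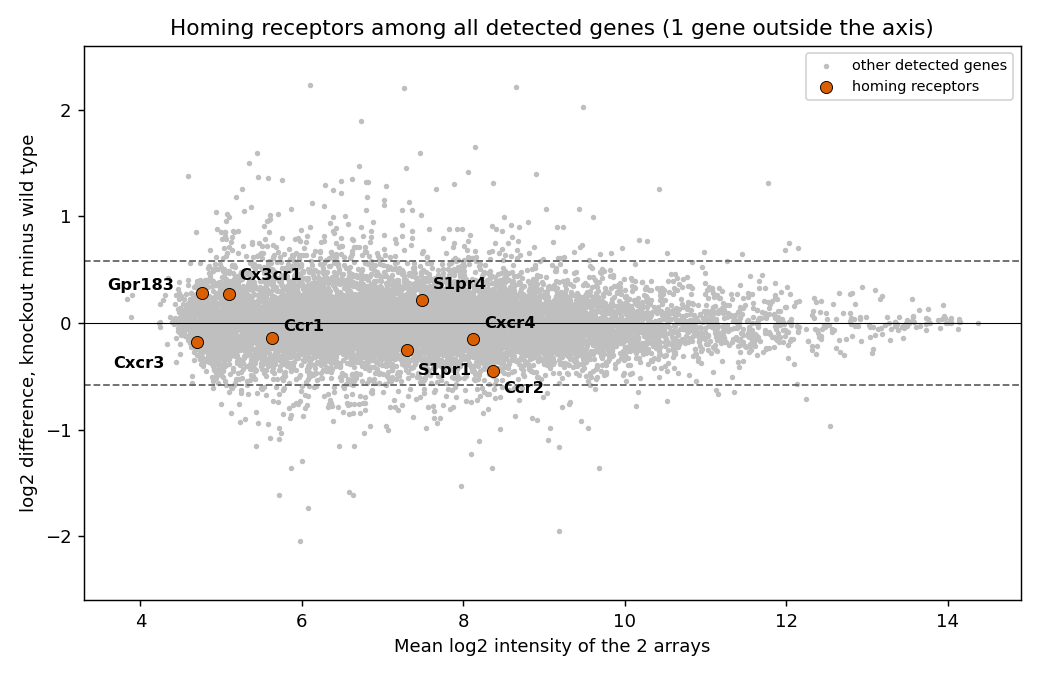
log2 difference, knockout minus wild type, against the mean log2 intensity of both arrays for 11440 detected genes, with the 8 detected homing receptors in orange, 1.5-fold as dashed lines and 1 gene outside the vertical axis. The receptors lie between -0.45 and 0.28, inside the dashed lines, and Ccr2 lies nearest to the lower line.

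The rest of the pathway was described by 6 lists of genes, beside the 2.30% of all detected genes that were higher by 1.5-fold or more and the 1.55% that were lower. Of 19 other chemoattractant receptors measured, 7 were detected, with a median of 0.01, and 1 was higher by 1.5-fold or more and 0 lower. That gene was Ccr9, which leads thymus-seeding progenitors and gut lymphocytes to Ccl25. Ccr9 read 75.8 in the knockout and 25.2 in the wild type, where it was under the floor, so on the centred log2 scale it was higher by at least 1.60 in its brightest probe set. A second probe set read 34.8 and 19.4, a difference of at least 0.48, and the remaining 3 were under the floor on both arrays. Both detected probe sets are of the _x_at and _a_at classes, which can match related sequences, and with a floor at the 75th percentile Ccr9 was not detected. Ackr1, a decoy receptor of chemokines, differed by -0.30 and Ccrl2 by 0.28.

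Receptors for other lipids, a list that also holds the nucleotide sugar receptor P2ry14, went both ways without reaching 1.5-fold. Of 15 measured, 11 were detected, with a median of 0.09. P2ry14 differed by 0.52, Lpar6 by 0.47 and the prostaglandin receptor Ptger2 by at least 0.42. Ptger2 read 33.5 in the knockout and 12.3 in the wild type, and without the floor it differed by 1.46.

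Genes for chemokines, the ligands of these receptors, went both ways more widely. Of 21 measured, 15 were detected, with a median of -0.12, and by 1.5-fold or more 1 was higher and 5 were lower. Without the floor the median was -0.39. Cxcl10 and Cxcl11, both ligands of Cxcr3, were lower in the knockout. Cxcl10 read 1138 in the knockout and 1907 in the wild type (-0.73), and Cxcl11 read 40.7 and 101 (-1.29), and raising the floor to the 75th percentile left Cxcl11 undetected. The other ligand of Cxcr3, Cxcl9, read 23.8, under the floor, and 37.1, and was lower by at least 0.51.

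Ligands of the myeloid receptors did not share 1 sign. Ccl5, a ligand of Ccr1, read 274 in the knockout and 446 in the wild type (-0.69). Ccl9, also a ligand of Ccr1, read 707 and 468 (0.61), with 0.32 in its second probe set and 0.46 as the median of both. Ccl2, the ligand of Ccr2, read 43.8 and 40.0 (0.15), a difference within the SD of a single probe set. Cx3cl1, which encodes fractalkine, read 36.6 and 56.7 (-0.62), by the only detected one of its 4 probe sets, and the same higher floor left it undetected. Pf4, a platelet chemokine, read 164 and 283 (-0.77), and megakaryocyte markers, which include it, were detected in 8 of 9 genes, with Ppbp under the floor, and summed to 952 and 1420, with Selp at -0.73. Cxcl12, the niche ligand of Cxcr4, was under the floor in all 3 probe sets on both arrays.

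Stromal markers, the list that holds Cxcl12, were detected in 4 of 8 genes and summed to 685 in the knockout and 430 in the wild type, with Pdgfrb at 0.92, Pecam1 at 0.30 and Cxcl12, Col1a1, Col3a1 and Cdh5 under the floor on both arrays. Most of that difference was Pdgfrb, which was at 0.35 without its _a_at probe set. Erythroid markers were detected in 6 of 7 genes, 2 higher and 4 lower, with Alas2 under the floor. They summed to 883 and 1024, with Gata1 at -0.84 and Slc4a1 at 0.49. The part of these cells in the ligand values was not tested.

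Genes that make, break down or carry the lipid ligands had a median of 0.12 over 14 detected of 20 measured, and 0 reached 1.5-fold in either direction. Sgpl1, the lyase that degrades sphingosine-1-phosphate, read 105 in the knockout and 74.6 in the wild type (0.51). Sgpp1, a phosphatase of the same lipid, read 134 and 187 (-0.46). Cyp7b1, an enzyme in the synthesis of Gpr183 ligands, read 27.1 and 37.2 (-0.44), close to the floor. Mfsd2b, the exporter of sphingosine-1-phosphate in red cells and platelets, differed by -0.25, and Spns2, its exporter in vessel walls, by 0.01.

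Genes that control the receptors were mostly higher in the knockout, 14 of 18 detected among 19 measured, with a median of 0.13. Of all detected genes, 50.0% were lower. By 1.5-fold or more, 3 of the control genes were higher and 0 lower. Dpp4, the surface protease that inactivates Cxcl12, read 251 in the knockout and 126 in the wild type, 2.01-fold higher (1.01). Its 2 other detected probe sets differed by 0.61 and 0.53. Klf2, a transcription factor known to drive S1pr1 in lymphocytes, read 5416 and 3242 (0.75), opposite in sign to S1pr1 here. Rgs10, which shortens Gi signals, read 293 and 194 (0.61, or 0.55 with the floor added to every value), and Cd69, which pulls S1pr1 from the cell surface, read 2928 and 2445 (0.27).

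Genes of the Gi signalling chain differed little, with a median of 0.08 over 21 detected of 22 measured and 0 past 1.5-fold in either direction. They too were mostly higher in the knockout, 16 against 5 lower, where 50.0% of all detected genes were lower. Vav1, an exchange factor for Rac proteins, differed by 0.52 and 0.43 in 2 probe sets, and Arhgef1, an exchange factor for RhoA, by 0.44 and 0.32. Pik3r5, a regulatory subunit of the PI3 kinase that these receptors activate, differed by -0.40. The alpha subunits Gnai2 and Gnai3 differed by 0.08 and 0.03.

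**Figure D4:**
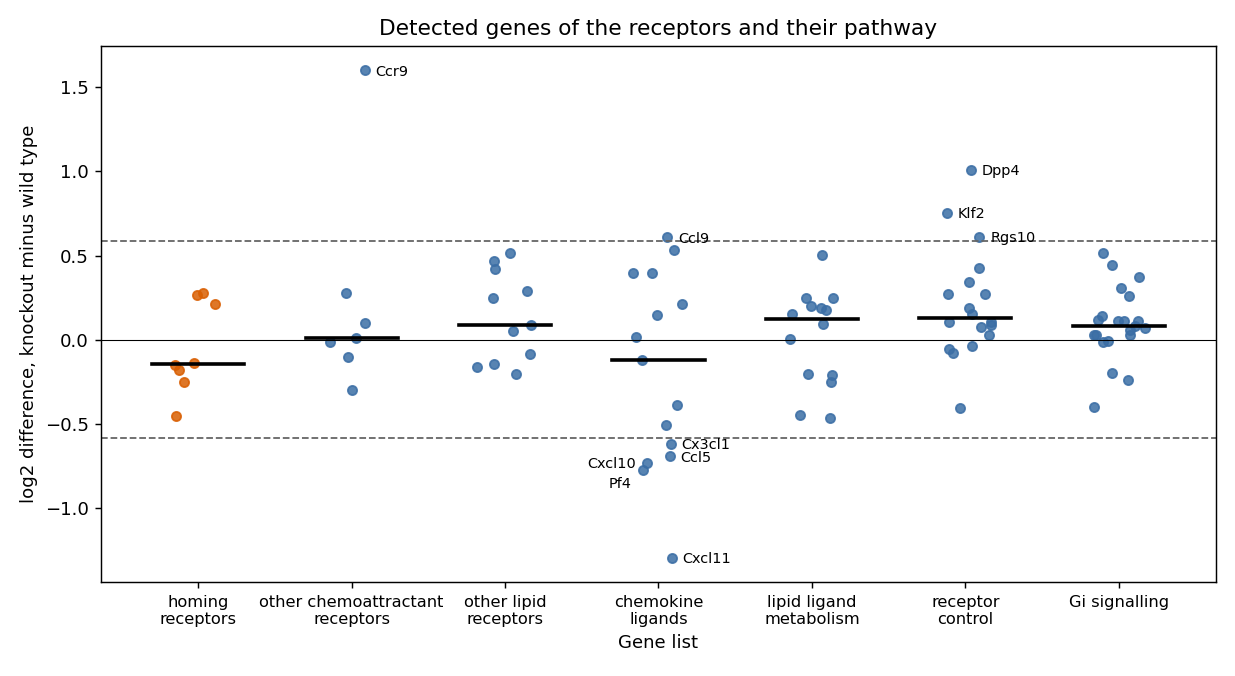
log2 difference, knockout minus wild type, of each detected gene in the homing receptors (orange) and in 6 lists of their pathway (blue), with black bars at the medians and 1.5-fold as dashed lines. No homing receptor passes the dashed lines, whereas Ccr9, Ccl9, Dpp4, Klf2 and Rgs10 lie above them and Cxcl11, Pf4, Cxcl10, Ccl5 and Cx3cl1 below.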

How the data were processed

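Total RNA of haematopoietic stem cells was hybridised to 1 Affymetrix array per genotype. For each of 45037 probe sets the deposited file gives 1 linear intensity on each array. MAS5 is the only tool in the submitters' processing notes, and the background and scaling steps are not stated there. A total of 2535 probe sets (5.63%) held the same value on both arrays, so small differences may depend on how the values were made.

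The platform's annotation gave 1 gene for 34945 probe sets, several for 932 and none for 9160, and 34741 matched the reference gene table. Intensities were converted to log2, centred on the median difference of detected gene probe sets (a shift of -0.01) and then raised to the floor, each array's median. Each gene was represented by its brightest probe set. Python 3.11.15 and pandas 2.3.3 were used, and the procedure was tested on simulated data. The simulation planted differences past 2-fold in bright genes only, so it does not cover differences as small, or genes as dim, as those of the receptors. The genes named were all receptors, the genes at least 1.5-fold different or otherwise the 3 largest differences in each of 6 pathway lists, the 2 largest in each of 10 marker lists, and Ppm1d; other genes named were chosen after their values were seen. Members and lists were chosen with earlier results of these data known. Array number limits the precision. Alternatives covered the floor, centring, quantile and loess normalization, an added offset and the probe sets used.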

Additional observations from a re-analysis of the deposited data

How the results depend on the processing

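Under 9 alternatives to the floor, the scaling and the choice of probe sets, the count of homing receptors at least 1.5-fold higher, 1.5-fold lower or 2-fold different stayed at 0. Their median ranged from -0.20 with a floor at the 75th percentile, which left 4 receptors detected, to -0.06 with a floor at the 25th percentile, at which all 10 were. The median over detected receptor probe sets ranged from -0.25 to -0.12. None of 87 alternative values for single receptors or their probe sets moved by the SD of a single probe set or changed sign. These values cover only receptors and probe sets detected in the main setting and in the alternative as well. With the floor at the 25th percentile, 5 receptors were lower and 5 higher, with Ccr7 among the higher only through the centring. Among list medians, chosen for this comparison after the data were seen, that of other chemoattractant receptors was 0.28 with a floor at the 75th percentile, and that of chemokine ligands was -0.37 with a floor at the 25th percentile. Of 352 alternative values for the other named genes 17 moved by at least the SD of a single probe set. Sgpp1 was at -0.12 when probe sets that can match several transcripts (_s_at, _x_at, _a_at) were dropped, and Dpp4 at 0.61, Ccr9 at 1.04 and Csf1r at 0.98, Slamf1 at -0.29 and Pdgfrb at 0.63 as the median over their detected probe sets. With a floor at the 75th percentile Il7r was at 0.67 and Gata1 at -0.23. No paired analysis was possible because each genotype has 1 array. Dim receptors near the floor (Gpr183, Cxcr3, Cx3cr1 and Ccr1) have little signal over background. The same holds for the dimmer Ccr2 probe sets, which read 37.2 and 28.9 in the knockout and 43.2 and 34.2 in the wild type.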

Other observations

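Ccr1 and Ccr2 lie in a cluster of chemokine receptor genes on chromosome 9, and the detected genes on its one side had the opposite sign. The difference of Ccr1 is within the SD of a single probe set, and 50.0% of all detected genes were lower in the knockout. This run of genes was chosen after the values were seen. In the order of the reference gene table, the protein-coding genes from Lztfl1 to Ccr2 are Lztfl1 (0.32), Ccr9 (at least 1.60 after centring), Fyco1 (0.33), Cxcr6, Xcr1, Ccr1 (-0.14), Ccr1l1, Ccr3 and Ccr2 (-0.45), where those without a value were not detected. Lztfl1 was higher in the knockout in all 3 of its detected probe sets, at 0.32, 0.35 and 0.53. Fyco1, which carries autophagosomes along microtubules, was measured above the floor by 1 probe set.

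The second Ccr2 probe set differed between the arrays by exactly 54.0 intensity units. On both arrays its value leaves a remainder of 0.15845 when divided into steps of 0.5, and the same remainder (within 2e-05) was found on both arrays for 1565 probe sets, 3.47% of all. On the knockout array 1611 values had this remainder, rounded to the same 5 decimals, and the next most frequent remainder was held by 73. It was the only 1 of the 16 receptor probe sets on this grid. Among the other genes named here, Ccl5, Lpar6 and the brightest probe set of Dntt are examples that also lie on the grid. The other 3 probe sets of Ccr2 are not on it, and each read lower in the knockout as well. The dimmer ones among them lie near the floor.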
